A study of Mus musculus with 8 samples.

Results

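The killer cell lectin-like receptors were taken as the genes whose symbols start with Klr in the deposited table, which gave 31 of 37979 genes. Subfamilies are named by the letter that follows Klr. There were 14 Klra genes, 6 Klrb genes, 3 Klrc genes, 2 Klrg genes, 2 Klri genes and 1 gene each of Klrd, Klre and Klrk. The remaining match, Klraq1, lies at chr17:88929464-88987705 (NCBI Build 37) and is named after a sequence motif of its protein. It is no lectin receptor, so the receptor genes number 30. All 30 lie on chromosome 6. In the GENCODE annotation of this build, Klra11 and Klra14 were pseudogenes, Klra13-ps was a processed transcript under the name Klra23, and the others were protein coding, Klrb1-ps1 among them. FPKM, a count of fragments scaled to transcript length and to the size of the library, was above 0 in at least 1 library for 29 of the 30 receptor genes, the exception being Klrb1-ps1.

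The libraries came from hindlimb muscle of Ai14+/-;SM22α-Cre+ mice of both sexes, aged 3 to 4 months. In these mice Cre is driven by the SM22α promoter and leaves a permanent tdTomato label, so any cell that has once used this promoter is red. Pericytes were sorted as PDGFRβ+tdTomato- cells and SMCs as PDGFRβ+tdTomato+ cells, after CD31+ and CD45+ cells had been gated out, and several sorts were combined for each of the 4 libraries per group. All 8 libraries carry the same batch label, no treatment is named, and the strain background of the mice is not given in the sources used here. For the variation between replicates, the paper proposes individual differences and batch effects, as several sorts were combined.

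Killer cell lectin-like receptors are type II membrane proteins of natural killer cells and of some T cells, and most of their genes form the natural killer gene complex. Inhibitory members carry an immunoreceptor tyrosine-based inhibitory motif (ITIM) in the cytoplasmic tail and recruit phosphatases such as the product of Ptpn6. Activating members lack it and signal through adaptors such as the products of Tyrobp and Hcst. Neither vascular pericytes nor SMCs are known for them.

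The starts of the coding sequences show this division, and are printed for the receptors on which the results turn. Each line holds the first 90 bases of the longest complete coding sequence of the gene (GENCODE, NCBI Build 37), in the direction of transcription, with the codons of an ITIM in capitals. The genes lie at chr6:130168623-130183340 (Klra7), chr6:130313936-130336892 (Klra1), chr6:129993749-130017289 (Klra4), chr6:130065244-130079916 (Klra8), chr6:129616033-129628991 (Klrc1), chr6:129597514-129610707 (Klrc2), chr6:129560341-129573882 (Klrk1) and chr6:122220614-122232900 (Klrg1), all on the minus strand.
Klra7: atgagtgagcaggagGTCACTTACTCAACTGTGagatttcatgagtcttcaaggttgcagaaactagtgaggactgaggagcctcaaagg
Klra1: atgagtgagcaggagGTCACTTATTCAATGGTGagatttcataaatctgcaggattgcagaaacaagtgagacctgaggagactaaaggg
Klra4: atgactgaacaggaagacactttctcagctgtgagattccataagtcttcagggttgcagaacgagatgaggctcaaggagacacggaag
Klra8: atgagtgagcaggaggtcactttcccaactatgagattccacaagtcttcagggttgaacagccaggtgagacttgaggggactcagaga
Klrc1: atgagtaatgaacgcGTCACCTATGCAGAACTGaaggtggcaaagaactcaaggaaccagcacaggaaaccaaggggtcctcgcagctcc
Klrc2: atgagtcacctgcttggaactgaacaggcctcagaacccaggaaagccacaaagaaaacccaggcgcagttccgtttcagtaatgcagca
Klrk1: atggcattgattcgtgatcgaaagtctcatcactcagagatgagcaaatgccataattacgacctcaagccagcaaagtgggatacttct
Klrg1: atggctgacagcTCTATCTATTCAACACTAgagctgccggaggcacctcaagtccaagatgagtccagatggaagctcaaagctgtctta
An ITIM, searched for in the translated codons, was found within the first 30 codons of 14 receptor genes, among them Klra7, Klra1, Klrc1 and Klrg1, and not in 13 others, among them Klra4, Klra8, Klrc2 and Klrk1. Over all 21463 genes with a complete coding sequence, 2.54% had a match there. A gene without a match lacks the motif in these 30 codons only.

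Depth, labels and other cell types were checked before the receptors were compared. The number of fragments behind an FPKM value is unknown. Relative depth, taken from the commonest ratio of FPKM values under 0.3 between libraries, ran from 0.866 to 1.07. The label of the pericyte libraries was not borne out by markers, since 0 of 10 pericyte markers were higher in them and 2 were higher in the SMC libraries at a q value below 0.05, where 11.2% of all genes were (limma, with 0 and 6 at an unadjusted p below 0.05). These 10 markers summed to 67.1 to 156 FPKM across the pericyte libraries, against 183 to 522 FPKM in the others. The paper states that SMCs also express PDGFRβ, and that any tdTomato+ pericytes were counted as SMCs. Markers shared in this way need not be higher in pericytes, so they cannot decide the label. Of 8 SMC markers 0 passed in either direction with limma (0 higher in the pericyte and 3 in the SMC libraries at an unadjusted p below 0.05), with sums of 607 to 1907 and 1792 to 5824 FPKM. Of 8 endothelial markers 6 were enriched in the SMC libraries (2.66% of all genes) and 1 more passed the q value alone (11.2% of all genes were higher there at any fold), with sums of 78.0 to 133 and 301 to 952 FPKM. Pdgfrb, the gene of the sorting marker, had 5.51, 3.21, 12.5 and 17.6 FPKM in pericyte and 15.6, 17.4, 65.0 and 91.5 FPKM in SMC libraries 1 to 4. The groups are therefore called the pericyte and the SMC libraries, as labelled.

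Genes of lymphocytes moved with the groups. Of 18 natural killer cell markers, 14 were enriched in the pericyte libraries (limma, log2 fold change above 2 and q value below 0.05, the thresholds of the study), against 3.24% of all 27414 genes tested, and the summed level of the 18 was 1443 to 3008 FPKM in the pericyte and 66.1 to 78.4 FPKM in the SMC libraries. Nkg7 alone took 844, 2170, 1152 and 817 FPKM of that sum in pericyte and 20.0, 20.6, 13.9 and 15.3 FPKM in SMC libraries 1 to 4. Of 12 T cell markers 11 were enriched, with sums of 1582 to 2389 and 22.3 to 52.0 FPKM, and of 7 B cell markers 6 were, with sums of 832 to 2029 and 9.98 to 32.7 FPKM. No Klr gene is on these lists, and none of the natural killer or T cell markers was listed at 0 in a pericyte library. Macrophage markers, by contrast, were enriched in 0 of 9 cases in the pericyte libraries (limma, 0 also at an unadjusted p below 0.05) and in 4 of 9 in the SMC libraries (2.66% of all genes). In the SMC libraries 1 more passed the q value alone (11.2% of all genes were higher there at any fold), and 6 were higher at an unadjusted p below 0.05 (limma). The sums were 1032 to 1957 and 1538 to 2259.8 FPKM, to which Lyz2 alone gave means of 1093 and 1116 FPKM. Ptprc, which encodes CD45, had 202, 80.6, 230.3 and 189 FPKM in pericyte and 4.34, 9.15, 7.26 and 11.9 FPKM in SMC libraries 1 to 4. The part of these cell types in the values of the Klr genes was not tested. In bulk libraries, fewer cells of a type and less RNA per cell cannot be told apart.

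Killer cell lectin-like receptors were higher in the pericyte libraries in most of the family. Of the 29 receptor genes tested, 15 were enriched in the pericyte libraries, against 3.24% of all genes tested, and 2 more, Klra9 and Klrb1f, passed the q value alone. Together 17 of 29 were higher at a q value below 0.05, where 10.6% of all genes were, and 0 were higher in the SMC libraries with limma, also at an unadjusted p below 0.05. In 18 of the 29 the lowest pericyte value exceeded the highest SMC value, as in 12.1% of all genes. The median log2 fold change (pericyte minus SMC libraries, on log2(FPKM + 1), given below with its standard error, SE) was 2.17 over the receptor genes and 0.020 over all genes. The log2(FPKM + 1) scale understates the fold change of low genes.

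**Figure D1:**
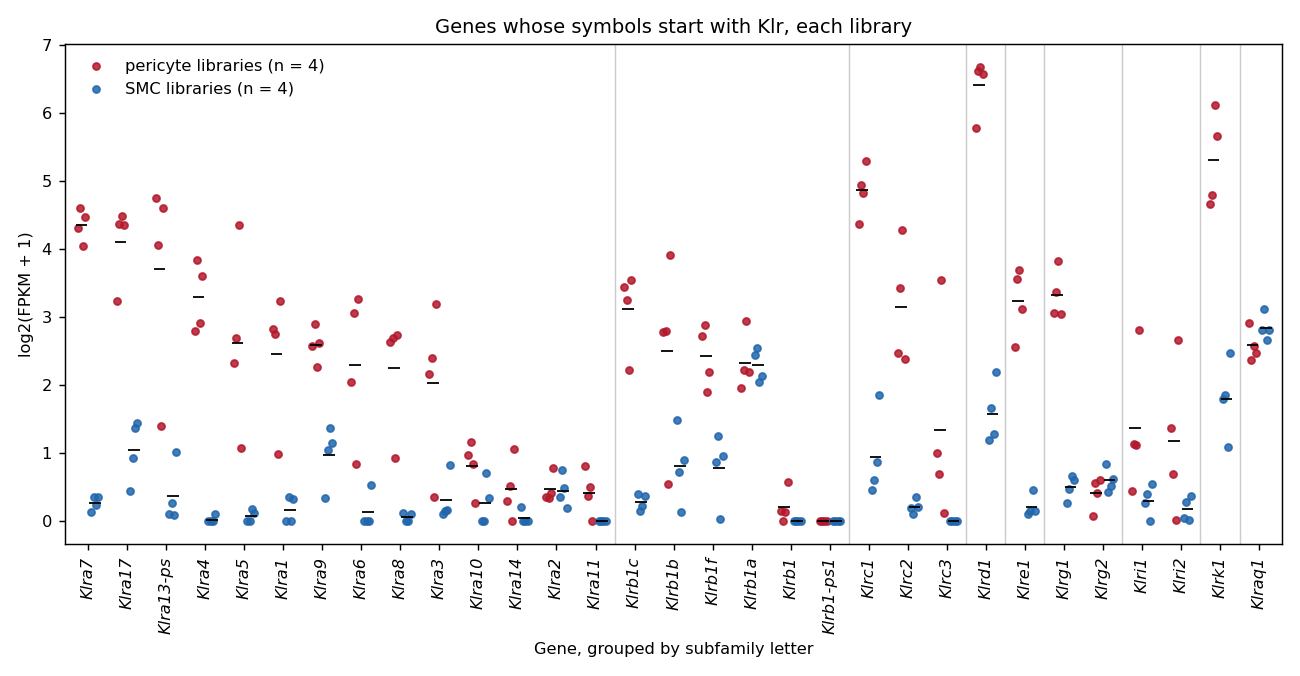
Level of each of the 31 Klr genes as log2(FPKM + 1) on the vertical axis, with genes grouped by subfamily letter on the horizontal axis. Each dot is 1 library, 4 pericyte libraries in red and 4 SMC libraries in blue, and the black bars are group means. In 18 receptor genes all red dots lie above all blue dots, and Klrd1 is the highest, with group means of 6.40 and 1.58.

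**Figure D2:**
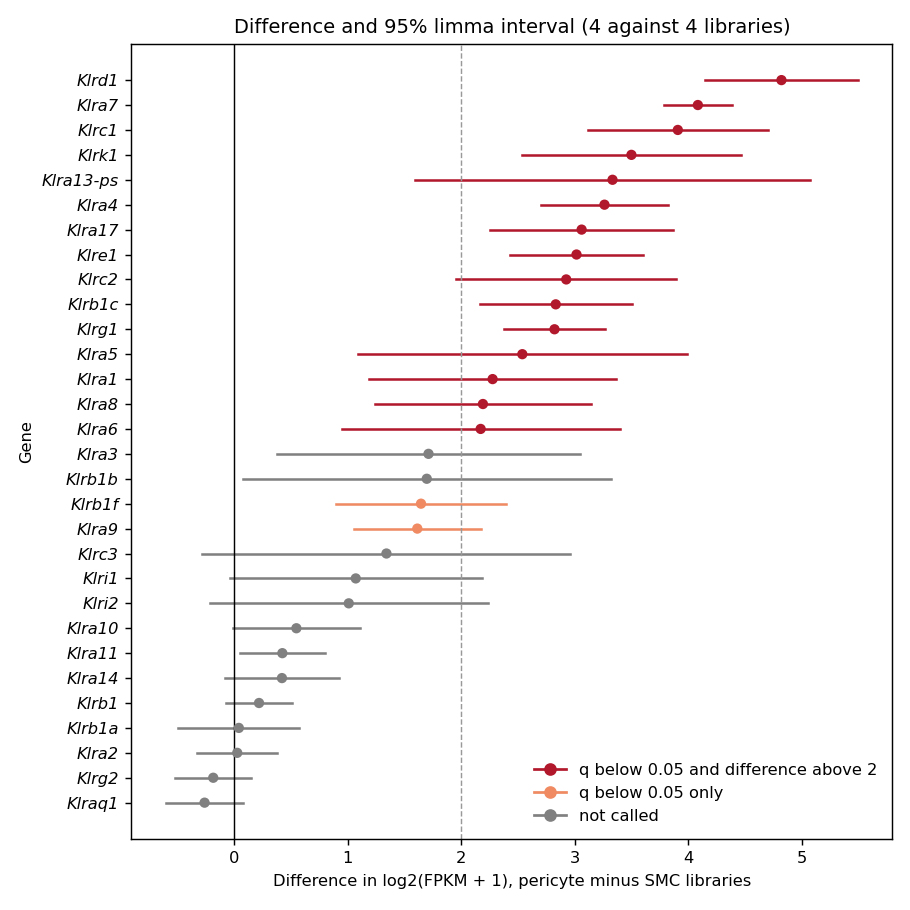
Difference in log2(FPKM + 1), pericyte minus SMC libraries, for the 30 Klr genes tested. Dots are limma estimates from 4 against 4 libraries, lines are 95% intervals, the solid line marks 0, and the dashed line marks a difference of 2. The 15 enriched genes run from 2.17 (Klra6) to 4.82 (Klrd1).

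Summed over the 30 receptor genes, the level was 230.3, 319, 338 and 358 FPKM in pericyte replicates 1 to 4 and 14.4, 17.3, 13.2 and 24.7 FPKM in SMC replicates 1 to 4. The lowest pericyte sum was thus above the highest SMC sum. Klra genes took 88.4, 109, 72.8 and 114 FPKM of it in pericyte replicates 1 to 4, and Klrd1 alone took 53.9, 96.3, 101 and 93.4 FPKM. Klra and Klrd1 together made up most of the sum in every pericyte library. In SMC libraries 1 and 2 the Klrb genes were the largest part, at 7.40 and 6.98 FPKM.

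**Figure D3:**
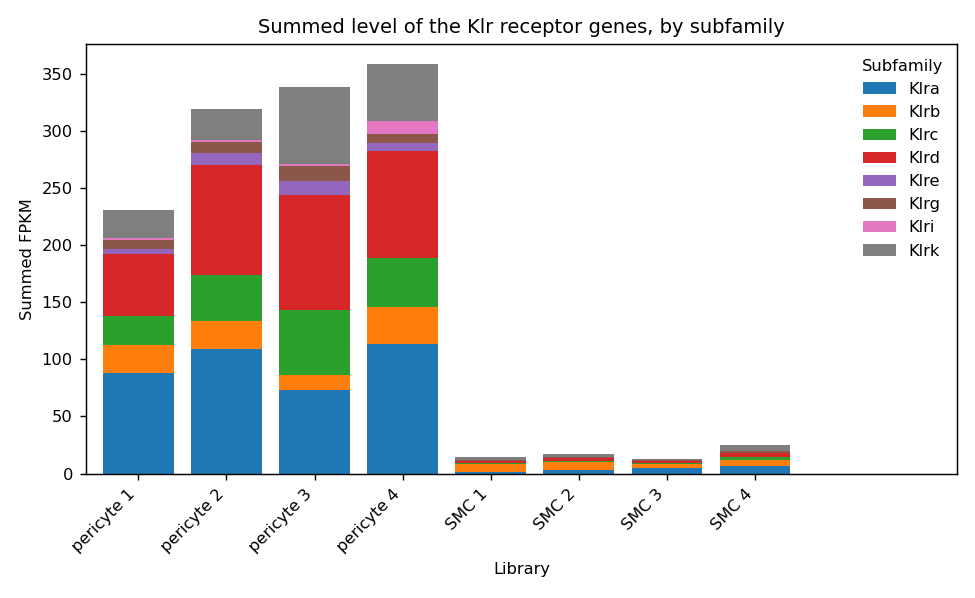
Summed FPKM of the Klr receptor genes in each of the 8 libraries, stacked by subfamily. The bars start at 0. The 4 pericyte libraries reach 230.3 to 358 FPKM and the 4 SMC libraries 13.2 to 24.7 FPKM.

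Klrd1, Klrk1 and Klrc1 had the highest mean levels of all members in the pericyte libraries. Klrd1 encodes CD94, the chain that pairs with the NKG2 proteins of the Klrc genes and binds the nonclassical MHC molecule Qa-1. It had 53.9, 96.3, 101 and 93.4 FPKM in pericyte replicates 1 to 4 and 1.28, 2.17, 1.43 and 3.59 FPKM in SMC replicates 1 to 4. Pericyte replicate 1 was the lowest of its group, and the groups did not overlap. The mean level in the pericyte libraries, 86.2 ± 21.8 FPKM (SD, n = 4), was 40.7 times that in the SMC libraries, 2.12 ± 1.05 FPKM (SD, n = 4), and the log2 fold change was 4.82 (SE 0.29, limma q = 5.8e-05).

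Klrc1 encodes the inhibitory partner NKG2A. It had 19.7, 29.8, 27.3 and 38.2 FPKM in pericyte replicates 1 to 4 and 0.372, 0.529, 0.833 and 2.62 FPKM in SMC replicates 1 to 4, with SMC replicate 4 the highest of its group and no overlap between groups. The log2 fold change was 3.91 (SE 0.34, limma q = 2.7e-04). Klrc2, which encodes the activating partner NKG2C, had 4.56, 9.74, 18.4 and 4.22 FPKM in pericyte replicates 1 to 4 and 0.142, 0.0812, 0.279 and 0.153 FPKM in SMC replicates 1 to 4, and the groups again stayed apart. Its pericyte values differed more among themselves, with replicate 3 the highest, and its log2 fold change was 2.92 (SE 0.41, limma q = 0.00239).

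Klrc3, which encodes NKG2E, reached 0.997, 0.613, 10.7 and 0.0941 FPKM in pericyte replicates 1 to 4 and stood at 0 throughout the SMC libraries. Replicate 3 held nearly all of it, and the gene did not pass (limma q = 0.247). With a pseudocount of 0.1 in place of 1 it did (limma q = 0.0431). Klrc2 and Klrc3 had coding sequences that were 96.4% identical, and 20.6% of the 100-base windows of Klrc3 transcripts also occur in another member, so the split of reads between them is uncertain. The same holds for Klrc1, with 14.6%. The 3 Klrc genes summed to 25.2, 40.1, 56.4 and 42.5 FPKM in pericyte replicates 1 to 4, less than Klrd1 in each of them.

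Klrk1 encodes NKG2D, an activating receptor that signals through the adaptor encoded by Hcst and binds stress-induced ligands. It had 24.3, 26.6, 67.9 and 49.2 FPKM in pericyte replicates 1 to 4 and 2.48, 2.62, 1.13 and 4.52 FPKM in SMC replicates 1 to 4. Pericyte replicates 3 and 4 were the higher ones, and the lowest pericyte value was above the highest SMC value. The log2 fold change was 3.50 (SE 0.41, limma q = 0.00105). Klrk1 and Klrd1 shared none of their 50-base windows with another member.

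Among the Klra genes, which encode the Ly49 receptors for classical MHC class I molecules, 8 of 14 were enriched in the pericyte libraries (3.24% of all genes) and 1 more passed the q value alone (10.6% of all genes were higher at any fold). Klra7, which encodes the inhibitory Ly49G, was the steadiest. It had 18.8, 23.3, 15.5 and 21.1 FPKM in pericyte replicates 1 to 4 and 0.0993, 0.282, 0.178 and 0.279 FPKM in SMC replicates 1 to 4. Its pericyte values lay close together and far above the SMC values, with a log2 fold change of 4.08 (SE 0.13, limma q = 4.9e-06). Klra17, which encodes the inhibitory Ly49Q, known from plasmacytoid dendritic cells and other myeloid cells, had 8.43, 19.5, 21.4 and 19.3 FPKM in pericyte replicates 1 to 4 and 0.357, 0.898, 1.58 and 1.73 FPKM in SMC replicates 1 to 4. Pericyte replicate 1 was the lowest of its group, the groups did not overlap, and the log2 fold change was 3.06 (SE 0.34, limma q = 8.6e-04).

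The activating Ly49 genes, Klra4 (Ly49D) and Klra8 (Ly49H), whose coding starts above hold no ITIM, were both enriched. Klra4 had 5.97, 13.3, 6.55 and 11.1 FPKM in pericyte replicates 1 to 4 and 0, 0, 0 and 0.0769 FPKM in SMC replicates 1 to 4, so that it was listed at 0 in 3 SMC libraries, and its log2 fold change was 3.26 (SE 0.24, limma q = 1.3e-04). Klra8 had 5.18, 5.48, 0.909 and 5.69 FPKM in pericyte replicates 1 to 4 and 0.0881, 0, 0 and 0.0825 FPKM in SMC replicates 1 to 4, and its log2 fold change was 2.19 (SE 0.40, limma q = 0.00779). Klra8 was low in pericyte replicate 3 alone, yet still above each SMC library, and 14.4% of its 100-base windows also occur in another member, mostly the pseudogene Klra14. Over all members, 7 of the 14 genes with an ITIM in the first 30 codons and 7 of the 12 tested without one were enriched, against 3.24% of all genes. Summed levels were 83.6, 119.9, 105 and 139 FPKM with an ITIM and 119.8, 183, 231 and 195 FPKM without one in pericyte replicates 1 to 4, Klrd1 being part of the second sum. Genes of both kinds were thus present in every pericyte library.

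The inhibitory genes Klra1, Klra5 and Klra6 varied more between pericyte libraries than Klra7 and Klra17. Klra1 (Ly49A) had 6.11, 5.73, 0.988 and 8.39 FPKM in pericyte replicates 1 to 4 and 0, 0.288, 0 and 0.259 FPKM in SMC replicates 1 to 4, with a log2 fold change of 2.28 (SE 0.46, limma q = 0.0120). Klra5 (Ly49E) had 4.02, 5.48, 19.3 and 1.11 FPKM in pericyte replicates 1 to 4 and 0, 0, 0.133 and 0.0860 FPKM in SMC replicates 1 to 4, and its log2 fold change was 2.54 (SE 0.62, limma q = 0.0243). Klra6 (Ly49F) had 3.14, 7.33, 0.789 and 8.60 FPKM in pericyte replicates 1 to 4 and 0, 0, 0 and 0.442 FPKM in SMC replicates 1 to 4, with a log2 fold change of 2.17 (SE 0.52, limma q = 0.0233). These 3 genes were enriched, with no overlap between groups, but the calls of Klra5 and Klra6 were close to the threshold. Klra5 no longer passed with any 1 of the SMC libraries left out (limma q from 0.0569 to 0.0595), and its log2 fold change fell below 2 without pericyte replicate 3 (1.96). Klra6 no longer passed without SMC replicate 1, 2 or 3 (limma q from 0.0577 to 0.0609), and its log2 fold change was 1.92 without pericyte replicate 2 and 1.85 without pericyte replicate 4. Neither passed when all 37979 listed genes were tested (limma q = 0.0568 and 0.0545).

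Klra9, Klra3 and Klra13-ps have overlapping gene models or shared sequence. The annotated Klra9 gene, chr6:130128771-130285823, spans Klra7, Klra10 and Klra13-ps and overlaps Klra3 on the same strand, and 47.2% of the 100-base windows of Klra3 transcripts also occur in Klra9 transcripts. Their coding sequences were 95.9% identical. Klra9 (Ly49I) had 4.97, 6.49, 3.82 and 5.16 FPKM in pericyte replicates 1 to 4 and 0.274, 1.06, 1.60 and 1.23 FPKM in SMC replicates 1 to 4, did not overlap between groups, and passed the q value but not the fold threshold, at 1.61 (SE 0.24, limma q = 0.00293). It passed both with a pseudocount of 0.1, at 2.37 (limma q = 0.00774), and with 0.01, at 2.51 (limma q = 0.0212). Klra3 (Ly49C) had 3.48, 4.26, 0.284 and 8.14 FPKM in pericyte replicates 1 to 4 and 0.0826, 0.115, 0.121 and 0.783 FPKM in SMC replicates 1 to 4, so that pericyte replicate 3 lay below SMC replicate 4. It did not pass (limma q = 0.0756), whereas it did without pericyte replicate 3 (limma q = 0.00407) and with a pseudocount of 0.1 (limma q = 0.0448). Klra13-ps had 26.0, 15.7, 1.65 and 23.3 FPKM in pericyte replicates 1 to 4 and 0.0751, 0.206, 0.0724 and 1.03 FPKM in SMC replicates 1 to 4, with pericyte replicate 3 far below the others. It had a log2 fold change of 3.33 (SE 0.74, limma q = 0.0171), or 4.10 without pericyte replicate 3. The last 4 Klra genes, Klra2, Klra10, Klra11 and Klra14, had group means under 1 FPKM in both groups, and none of them passed.

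The Klrb genes, which encode the NKR-P1 receptors, were mixed. Klrb1c, which encodes the activating receptor NK1.1, had 9.88, 8.49, 3.67 and 10.7 FPKM in pericyte replicates 1 to 4 and 0.317, 0.107, 0.167 and 0.289 FPKM in SMC replicates 1 to 4, with no overlap between groups and a log2 fold change of 2.83 (SE 0.29, limma q = 5.4e-04). In the fit reported, it was the only enriched Klrb gene of the 5 tested. Klrb1f had 5.59, 6.38, 2.74 and 3.58 FPKM in pericyte replicates 1 to 4 and 0.828, 1.39, 0.0272 and 0.940 FPKM in SMC replicates 1 to 4, and its log2 fold change of 1.65 (SE 0.32, limma q = 0.00966) missed the fold threshold. With a pseudocount of 0.1 it passed both thresholds, at 2.76 (limma q = 0.0292).

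Klrb1b, which encodes an inhibitory receptor of the product of Clec2d, had 5.85, 5.95, 0.463 and 14.0 FPKM in pericyte replicates 1 to 4 and 1.80, 0.646, 0.102 and 0.863 FPKM in SMC replicates 1 to 4. Pericyte replicate 3 lay among the SMC values, and the gene did not pass (limma q = 0.139), but it did without that library (limma q = 0.0113). Klrb1a, measured at more than 1 FPKM in every library, had 2.91, 3.67, 6.67 and 3.56 FPKM in pericyte replicates 1 to 4 and 4.45, 4.83, 3.11 and 3.38 FPKM in SMC replicates 1 to 4. Its groups overlapped, and its log2 fold change was 0.04 (95% interval -0.49 to 0.57, limma q = 0.931), with the sign turned by scaling to TPM, by quantile scaling, and without pericyte replicate 3, SMC replicate 3 or SMC replicate 4. Of all receptor genes it had the highest level in the SMC libraries, at 3.94 ± 0.828 FPKM (SD, n = 4). Klrb1 stayed under 1 FPKM in every library.

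Klre1 and the Klri genes encode chains that pair with each other. Klre1 had 4.91, 10.8, 11.9 and 7.64 FPKM in pericyte replicates 1 to 4 and 0.0774, 0.108, 0.377 and 0.109 FPKM in SMC replicates 1 to 4, without overlap, and a log2 fold change of 3.02 (SE 0.25, limma q = 2.3e-04). Its partners were less even. Klri1 had 0.358, 1.20, 1.17 and 6.01 FPKM in pericyte replicates 1 to 4 and 0.211, 0.322, 0 and 0.460 FPKM in SMC replicates 1 to 4. Klri2 had 1.59, 0.618, 0.0109 and 5.33 FPKM in pericyte replicates 1 to 4 and 0.0329, 0.216, 0.0108 and 0.289 FPKM in SMC replicates 1 to 4. In both, pericyte replicate 4 was by far the highest. Neither passed (limma q = 0.173 and 0.250).

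Klrg1 encodes an inhibitory receptor for cadherins, known from mature natural killer cells and effector T cells. It had 7.34, 9.35, 13.2 and 7.27 FPKM in pericyte replicates 1 to 4 and 0.210, 0.390, 0.580 and 0.524 FPKM in SMC replicates 1 to 4, with no overlap between groups and a log2 fold change of 2.82 (SE 0.19, limma q = 8.9e-05). Klrg1 lies apart from the run of Klr genes between Klrb1a and Klra2 and shares no 50-base window with another member. Klrg2, which lies at chr6:38576660-38587239, had group means under 1 FPKM and did not pass (limma q = 0.462). Klraq1, the gene that shares only the letters of the name, had 6.53, 4.19, 4.95 and 4.56 FPKM in pericyte replicates 1 to 4 and 5.99, 7.66, 5.32 and 5.98 FPKM in SMC replicates 1 to 4, with overlapping groups and a log2 fold change of -0.26 (95% interval -0.60 to 0.077, limma q = 0.282).

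Within the pericyte libraries, replicate 3 departed from the others in several members, which was noticed after the values were seen and is described without a test. Of the 23 receptor genes that averaged 1 FPKM or more in these libraries, 11 were lowest and 9 were highest in replicate 3. The corresponding numbers were 8 and 1 in replicate 1, 0 and 4 in replicate 2, and 4 and 9 in replicate 4. In 8 of them replicate 3 was below 0.5 times the lowest of the other 3 pericyte libraries, namely Klrb1b, Klrb1c, Klri2, Klra6, Klra8, Klra13-ps, Klra3 and Klra1, whereas 3.11% of all 13102 genes at this level were. In 2 of them, Klrc3 and Klra5, replicate 3 was above 2 times the highest of the others, as were 0.954% of all genes. Replicates 1, 2 and 4 were below that limit in 2, 0 and 2 members and more than 2 times above the highest of the others in 0, 0 and 3. Over all genes 3.27% were under and 0.992% over these limits in replicate 1, and 2.69% and 1.71% in replicate 4. Replicate 2 departed most often over all genes, with 7.94% under and 7.17% over, and its FPKM values summed to 1190440 against 690247 to 782014 in the other pericyte libraries. The 8 low genes were not neighbours in 1 block, since Klrd1, Klrk1, Klrc1, Klra17 and Klra7, which lie between them, were not below this limit. Of the 17 natural killer cell markers at this level, 0 were below 0.5 times the lowest of the other libraries in replicate 3. Of the same markers, 10 were highest in replicate 3 and 7 in replicate 2. Ncr1, which encodes the natural killer cell receptor NKp46, had 11.5, 11.0, 15.8 and 10.2 FPKM in pericyte replicates 1 to 4, and Eomes, a transcription factor of natural killer cells, had 2.73, 4.91, 11.1 and 9.25 FPKM. Both are among the 10. Among the 7 highest in replicate 2, Nkg7 had 844, 2170, 1152 and 817 FPKM, and Gzma had 141, 254, 222 and 109 FPKM. The relative depth of pericyte replicate 3 was 1.01. Whether the libraries differed in their alleles of the Klr genes could not be checked.

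**Figure D4:**
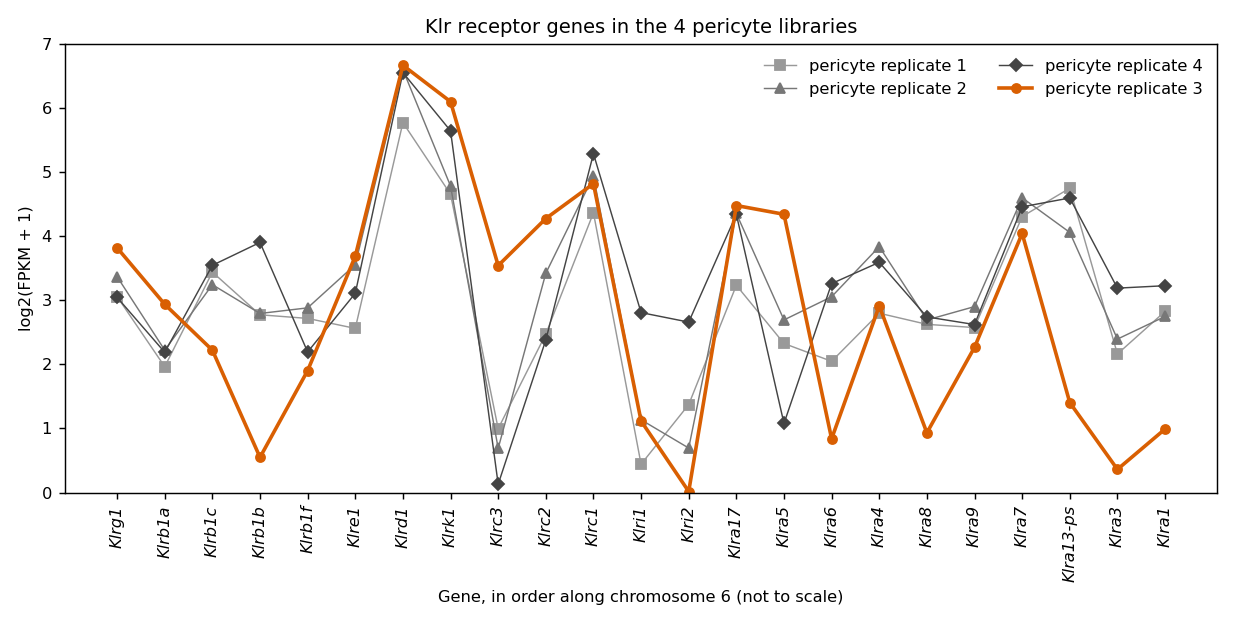
Levels of the 23 receptor genes that averaged 1 FPKM or more in the pericyte libraries, as log2(FPKM + 1), with genes in their order along chromosome 6 and not to scale. Each line is 1 pericyte library, and replicate 3 is in orange. Replicate 3 is the lowest library in 11 genes and the highest in 9, and replicate 4 is the lowest in 4 and the highest in 9.

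Most of the adaptors and enzymes that act downstream of these receptors were higher in the pericyte libraries as well. Of 20 such genes, 13 were enriched and 4 more passed the q value alone, where 3.24% and 10.6% of all genes were enriched or higher. The other 3, Plcg1, Ptpn11 and Sh2d1b2, named after their values were seen, did not pass (limma q = 0.171, 0.709 and 0.111). Ptpn11 had a log2 fold change of -0.20 (SE 0.28). The summed level of the 20 genes was 2779 to 4511 FPKM in the pericyte and 488 to 612 FPKM in the SMC libraries. Hcst, which encodes the adaptor DAP10 of NKG2D, had 367, 956, 528 and 469.8 FPKM in pericyte and 12.5, 15.7, 11.9 and 10.6 FPKM in SMC libraries 1 to 4, a log2 fold change of 5.33 (SE 0.29, limma q = 4.1e-05). Tyrobp, which encodes DAP12, the adaptor of Ly49D and Ly49H, had 664, 1413, 1087 and 1359 FPKM in pericyte and 269, 255, 254 and 318 FPKM in SMC libraries 1 to 4. It was high in both groups and passed the q value only, at 1.99 (SE 0.24, limma q = 0.00124). Fcer1g, an adaptor of NK1.1 that myeloid cells also use, did likewise, at 1.24 (SE 0.26, limma q = 0.0126). Ptpn6, which encodes a phosphatase that ITIMs recruit, had a log2 fold change of 3.36 (SE 0.20, limma q = 6.0e-05), with a mean of 148 ± 47.8 FPKM (SD, n = 4) in the pericyte and 13.1 ± 1.14 FPKM (SD, n = 4) in the SMC libraries. The kinase gene Lck and the adaptor gene Lat, which serve T cell receptors and of which Lat is also among the T cell markers above, had log2 fold changes of 5.67 (SE 0.17, limma q = 4.9e-06) and 5.72 (SE 0.28, limma q = 2.7e-05).

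Genes of ligands of the receptors were called in both directions. Of 21 ligand genes listed, 16 were in the deposited table and 14 were above 0 in at least 1 library. The genes left out in this way include Raet1a, Raet1b, Raet1e, H60a, H60c and Ulbp1 of the NKG2D ligands. Of 14 ligand genes tested, 1 was enriched in the pericyte libraries (3.24% of all genes), 3 more passed the q value alone (enriched or not, 10.6% of all genes were higher), 3 were higher in the SMC libraries at a q value below 0.05 (11.2% of all genes), and 7 did not pass. The classical MHC class I genes, whose products Ly49 receptors bind, were high everywhere. H2-K1 had 1913, 2000.4, 2098 and 1669 FPKM in pericyte and 696, 688, 732 and 759 FPKM in SMC libraries 1 to 4, a log2 fold change of 1.41 (SE 0.084, limma q = 5.8e-05). H2-D1 had a log2 fold change of 1.12 (SE 0.27, limma q = 0.0229), and H2-T23, the gene of Qa-1, one of 0.60 (SE 0.15, limma q = 0.0317). These 3 genes exceeded 100 FPKM in every library of both groups. Clec2i, whose product binds receptors of the NKR-P1 family, was the enriched ligand, with 35.8, 20.5, 19.9 and 22.4 FPKM in pericyte and 2.09, 1.04, 0.753 and 1.39 FPKM in SMC libraries 1 to 4 and a log2 fold change of 3.46 (SE 0.24, limma q = 1.0e-04). The genes higher in the SMC libraries were Cdh2, Raet1c and Raet1d, named after their values were seen. Cdh2, which encodes N-cadherin, a ligand of KLRG1, had 3.40, 1.20, 0.649 and 2.25 FPKM in pericyte and 7.64, 8.97, 5.61 and 5.42 FPKM in SMC libraries 1 to 4, with a log2 fold change of -1.54 (SE 0.32, limma q = 0.0130). Raet1c and Raet1d, which encode ligands of NKG2D, had means of at most 1.01 FPKM in either group.

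The other C-type lectin genes of the same gene complex, which myeloid and other cells use, were called in 5 of 22 cases. Of 22 tested, 2 were enriched in the pericyte libraries (Cd69 and Clec2i), 2 passed the q value alone, 1 was enriched in the SMC libraries (Clec1a, named after its values were seen) and 17 did not pass. Of all genes, 3.24% were pericyte-enriched and 2.66% SMC-enriched. At the q value, 10.6% were higher in the pericyte and 11.2% in the SMC libraries. Cd69, an activation marker of lymphocytes, had 500.1, 612, 373 and 289 FPKM in pericyte and 10.3, 15.1, 4.22 and 8.30 FPKM in SMC libraries 1 to 4, a log2 fold change of 5.46 (SE 0.38, limma q = 1.1e-04). Clec7a, which encodes the myeloid receptor dectin-1, overlapped between groups, with 18.7, 23.1, 90.4 and 159.7 FPKM in pericyte and 12.8, 16.2, 17.4 and 28.6 FPKM in SMC libraries 1 to 4 (limma q = 0.220). The median log2 fold change was 0.091 over these 22 genes, 2.17 over the 29 Klr receptor genes and 0.020 over all genes.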

How the data were processed

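RNA from pericyte and SMC libraries of mouse hindlimb muscle, 4 of each, was amplified as cDNA (SMART-Seq v4) and made into Nextera XT libraries. The authors aligned reads to NCBI Build 37 (Bowtie2, TopHat), used Ensembl gene models, and deposited FPKM per gene and library on a linear scale. The program that computed FPKM, and whether strand was used, are not given in the sources used here. Reads that fit several near-identical Klr genes can be split or lost.

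Here limma 3.58.1 (R 4.3.3) was fitted to log2(FPKM + 1) of the 27414 genes not at 0 in every library, with Benjamini-Hochberg adjustment (q value). Every Klr gene with a group mean of at least 1 FPKM is given with all its values. Of other lists, the 6 highest genes, sort genes and defining markers could be named. On simulated data, 187 of 200 genes changed by 4 log2 units and 0 others of 27414 were called. The changed genes were drawn from those with a mean log2(FPKM + 1) above 1, and the noise was independent between libraries. The simulation therefore does not cover smaller differences, lower genes or libraries that vary together. Positions, transcripts and coding sequences came from GENCODE version M1 (NCBI Build 37), which holds all 31 gene identifiers. Sequence work and figures used Python 3.11.15, biopython 1.88, pandas 2.3.3, numpy 2.4.6 and matplotlib 3.10.9. The p-values measure the spread between libraries that each combine several sorts. The members and lists were chosen with earlier results of these data known. Alternatives were other pseudocounts, filters and scalings, a replicate block, a covariate, an intensity trend and each library left out. The restriction to members with few shared windows was chosen after seeing the data.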

Additional observations from a re-analysis of the deposited data

Results flagged for a closer look

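Of 48 groups of 4 libraries (24 genes in each of the 2 cell groups), 7 held 1 library whose distance from the nearest other exceeded the limit of Dixon's test on log2(FPKM + 1), which chance gives in about 1 of 20 groups. Pericyte replicate 1 was low for Klrd1 (53.9 FPKM) and Klra17 (8.43 FPKM), and pericyte replicate 3 was low for Klra8 (0.909 FPKM). SMC replicate 4 was high for Klra4 (0.0769 FPKM), Klra6 (0.442 FPKM) and Klra3 (0.783 FPKM), the first and second of which were listed at 0 in the other SMC libraries. With 3 libraries at 0 any value above 0 exceeds the limit, so the chance rate does not apply to Klra4 and Klra6. SMC replicate 3 was high for Klre1 (0.377 FPKM). SMC replicate 4 also had the highest summed Klr level of its group, at 24.7 FPKM. These flags rest on FPKM not rescaled to the library sum, which was 690247 in pericyte replicate 1 and 1190440 in pericyte replicate 2. Whether they hold after scaling to TPM was not tested. Why these libraries stood apart was not tested.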

How the results depend on the processing

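The number of Klr genes enriched in the pericyte libraries was 15 in the fit reported and between 13 and 19 under the other settings run, and the number passing the q value at any fold was 17 and between 15 and 19, except that the filter at 1 FPKM in at least 4 libraries left 17 members to test and 12 enriched, and that the restriction to members with few shared windows, given next, left fewer members. With each library left out in turn, these counts ran from 13 to 16 and from 15 to 19. Without the 6 members that share at least 10% of their 100-base windows with another member, 13 of 24 were enriched and 14 passed the q value at any fold. The median log2 fold change of the 30 Klr genes tested, 1.94, was 3.70 with a pseudocount of 0.1, 4.10 with 0.01, 2.92 with the filter at 1 FPKM, 2.41 over members with a mean of at least 1 FPKM, and 1.76 to 2.31 with each library left out. Both limits at 1 FPKM keep members mostly through the pericyte libraries, where they are high, so the higher medians follow from the choice of members and say nothing of stability. Scaled to TPM, the mean summed receptor level was 383 in the pericyte and 25.0 in the SMC libraries. The log2 fold change of Klrb1a turned to -0.15 with TPM scaling and -0.013 with quantile scaling, and ran from -0.16 to 0.16 with each library left out. Klrb1f did not pass with a pseudocount of 0.01 (log2 fold change 3.26, limma q = 0.0898), and Klrb1b passed with the filter at 1 FPKM (limma q = 0.0452). The cause of these changes was not tested. Over all genes, 888 were pericyte-enriched in the fit reported and 1380 with a pseudocount of 0.01.

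Deviations of pericyte and SMC libraries of the same number correlated across 13612 genes at 0.0794 to 0.474, and 5 of 8 libraries correlated best with their own number, so the numbers were not taken as pairs. Pericyte and SMC libraries of unlike numbers correlated at 0.209 to 0.538 within replicates 1 and 2 or within 3 and 4. Between replicates 1 or 2 and replicates 3 or 4 the correlations were negative, at -0.451 to -0.102. The cause of this split was not tested. With the replicate number as a block, 15 Klr genes were enriched and 17 passed the q value, as without it. The counts were also 15 and 17 with replicates 1 and 2 against 3 and 4 as a covariate.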
